A study of Mus musculus with 35 samples.

Results

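The cervical spinal cord and the medulla of normal adult mice were compared by RNA-seq in 10 libraries from 5 WT mice at 9 weeks of age, out of 35 libraries from 18 mice in the whole series. The libraries were taken by their titles, and the mouse identifier in their descriptions paired the 2 tissues of each animal, here called mice 1 to 5. All 5 were wild-type C57Bl/6J mice without the SCA7 allele, for which the labels name no treatment, and the tissue had been frozen at collection. The other libraries came from SCA7 mice, which carry an expanded CAG repeat knocked into 1 copy of the ataxin-7 gene, and from younger mice, and are used below only to give the same genes a value in other animals. The question was which genes differ between these adjoining regions in normal tissue, both of which hold motor nuclei for breathing.

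The medulla and the spinal cord are continuous, and their cells keep a record of position in the *Hox* genes. These genes encode homeodomain transcription factors and lie in 4 clusters, in which genes of higher paralog number are switched on further towards the tail during development, and many stay on in adult neurons. The medulla holds cell groups that the cord lacks, among them the serotonin neurons of the raphe, the noradrenaline and adrenaline neurons, and neurons of the visceral and branchial nerves. The cervical cord holds the phrenic and limb motor neurons, the dorsal horn, and a larger share of white matter. In pieces of whole tissue, fewer cells of a type and less RNA per cell cannot be told apart.

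Depth divided the libraries. Cervical libraries 1 and 5 and medulla libraries 2 and 5 were deep, with 28969003 to 35889095 counts, and the other 6 were shallow, with 112060 to 160319 counts. On the scaled level used below, 1 count in a shallow library was worth 7.74 to 10.01 CPM (counts for every 1e+06 counts in the library), and 1926 to 2541 genes reached 10 counts, against 17286 to 17831 genes in the deep ones. A count of 0 therefore allows up to 23.2 to 30.03 CPM in a shallow library and 0.0690 to 0.108 CPM in a deep one (3 counts, counting error only). Transcripts of the mitochondrial genome took 3.56% to 12.1% of the counts in deep libraries and 19.4% to 36.1% in shallow ones. Mice 3 and 4 were shallow in both tissues and mouse 5 deep in both, so that these 3 pairs had equal depth, whereas mice 1 and 2 each paired a deep with a shallow library. Salivary gland genes were found in cervical libraries 4 and 5 and muscle genes in cervical library 1, and the calls that touch them are given below.

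The 5 cervical libraries all held counts of *Hoxc8* and the medulla libraries held 1 count of it in all, so the tissue labels of these 10 libraries matched this gene. One other WT pair did not. In the P8 WT pair, the library labelled cervical cord held 1 count of *Hoxc8*, whereas the library labelled medulla held 5993, and that pair was used in no comparison.

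Of 18969 genes tested with the mouse as a block, 138 (0.728%) differed at an adjusted p under 0.05 (edgeR quasi-likelihood test). Of these, 86 (0.453% of the tested genes) were higher in the cervical cord and 52 (0.274%) were lower, and the median log2 fold change of cervical cord over medulla was 0.04 over all tested genes. All log2 fold changes below are cervical cord over medulla from this fit, with the standard error (SE), and levels are CPM scaled by TMM factors. Levels are not per transcript length, so they compare a gene between libraries and not genes with each other. In the pair of deep libraries of mouse 5, which are part of the fit, all 138 genes differed in the direction of the fit. This count is not independent evidence, because the same pair helped to pick the genes and without mouse 5 only 10 were called. Scaling by library totals in place of TMM moved the median of all genes to -0.12 and turned the split to 50 higher and 70 lower, so a small difference depends on the scaling.

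The *Hox* genes divided by paralog group. Of the 29 *Hox* genes with enough counts to be tested, 10 were higher in the cervical cord and none was lower, and all 10 belonged to paralog groups 6 to 9. By group, 0 of 11 genes of paralog groups 1 to 4 were called (median log2 fold change 0.20), 6 of 11 of groups 5 to 8 (median 2.55) and 4 of 7 of groups 9 to 13 (median 7.18, also with the 3 genes that had no medulla count taken at their bounds). Another 10 *Hox* genes were not tested because no library reached 10 counts. Of these, *Hoxa11*, *Hoxc11*, *Hoxd11*, *Hoxc12*, *Hoxd12* and *Hoxa13* had no count in any of the 10 libraries.

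**Figure D1:**
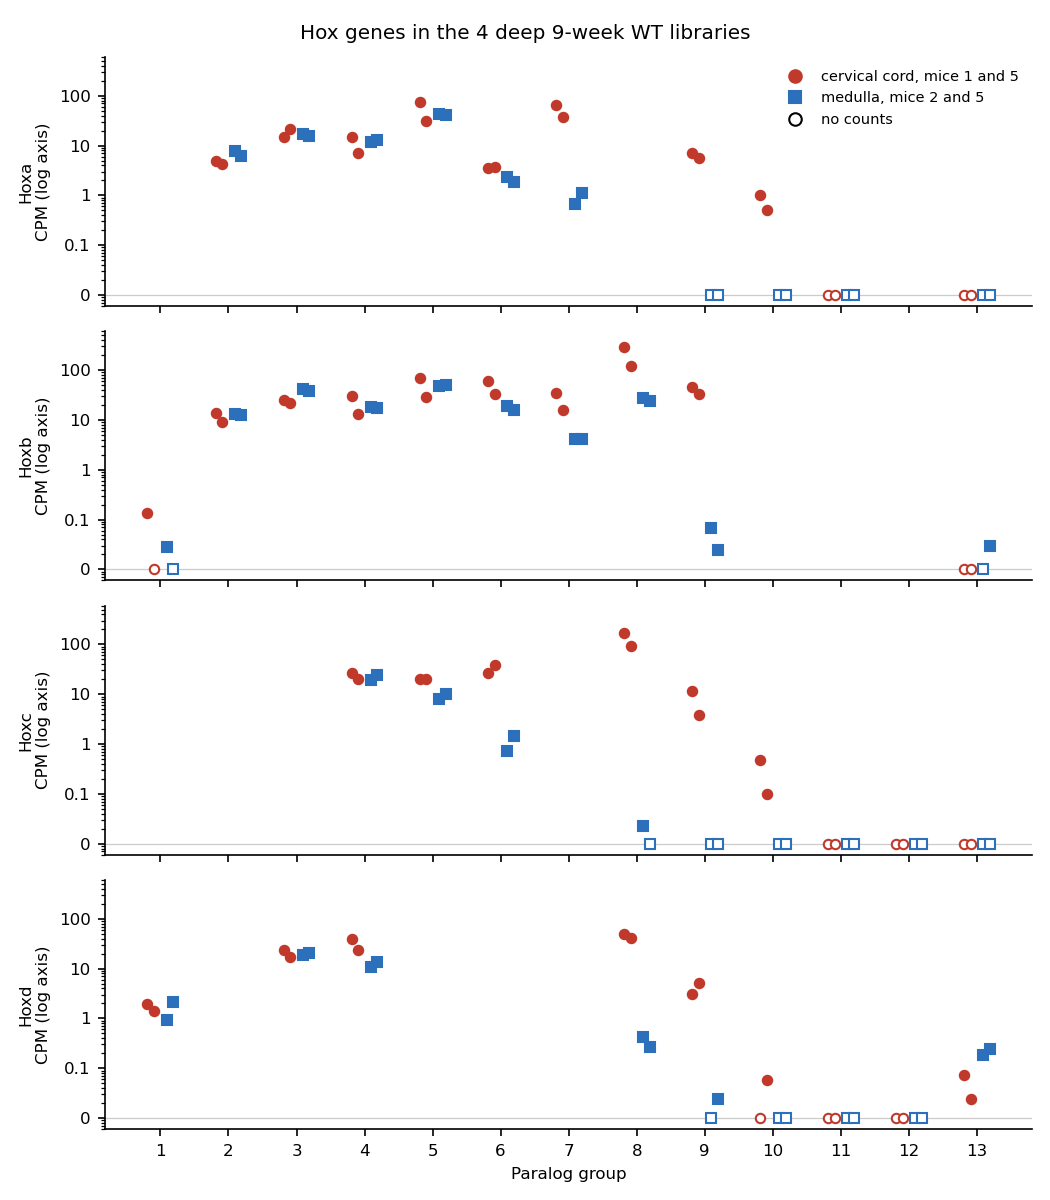
Level of Hox genes (CPM, logarithmic axis) against its paralog group in the 4 deep libraries, with 1 panel for each cluster. Open symbols on the line marked 0 had no counts. Among the tested genes from paralog group 6 upwards both cervical libraries (mice 1 and 5) lie above both medulla libraries (mice 2 and 5), with the exception of Hoxd13, whereas among the plotted genes of groups 1 to 4 this holds for Hoxd4 only.

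Positions of the *Hox* genes were read from RefSeq on GRCm38.p6. The stretch of 250 bases before the start site is printed for 3 of them (for *Hoxb8*, before a start site inside its annotated span), because *Hoxb8* and *Hoxd8* were called higher in the cord and *Hoxb4*, which lies in the same cluster as *Hoxb8*, was not. Capitals mark matches, on either strand, to TTTATNG, a sequence that Cdx factors can bind, or to AGGTCA, the core sequence bound by retinoic acid receptors. Cdx factors and retinoic acid are the classical developmental inputs to these clusters.
*Hoxb8*, chr11:96281655-96281904, + strand: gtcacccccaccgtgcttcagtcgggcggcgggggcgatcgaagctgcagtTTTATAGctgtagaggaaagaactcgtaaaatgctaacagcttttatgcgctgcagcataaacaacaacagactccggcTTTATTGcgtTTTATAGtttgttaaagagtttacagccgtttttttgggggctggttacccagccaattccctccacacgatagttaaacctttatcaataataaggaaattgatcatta
*Hoxd8*, chr2:74704365-74704614, + strand: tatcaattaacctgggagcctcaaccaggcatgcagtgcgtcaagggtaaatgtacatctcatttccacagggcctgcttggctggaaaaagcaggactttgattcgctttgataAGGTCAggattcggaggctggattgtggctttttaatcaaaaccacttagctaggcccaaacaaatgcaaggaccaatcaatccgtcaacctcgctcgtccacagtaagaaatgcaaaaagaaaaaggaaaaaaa
*Hoxb4*, chr11:96318017-96318266, + strand: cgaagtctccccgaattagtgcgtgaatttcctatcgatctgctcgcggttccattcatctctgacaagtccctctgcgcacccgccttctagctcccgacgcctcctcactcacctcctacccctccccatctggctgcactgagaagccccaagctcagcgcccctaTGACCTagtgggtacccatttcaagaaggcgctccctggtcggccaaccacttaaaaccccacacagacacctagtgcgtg
The *Hoxb8* window held 3 matches to the Cdx motif, of which 2 overlap matches to the TATA box motif (TATAAA), and none to the receptor motif. The windows of *Hoxd8* and *Hoxb4* each held 1 match to the receptor motif and none to the Cdx motif. Among 32817 windows of the same length before RefSeq start sites, 9.81% held the Cdx motif and 14% the receptor motif, and among 24 windows of *Hox* genes the motifs were found in 2 and 6. These matches describe letters only. The Cdx genes themselves (*Cdx1*, *Cdx2* and *Cdx4*) had no count in any of the 10 libraries.

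*Hoxc8* (chr15:102990539-102994275), a gene of brachial cord identity that is needed for limb motor pools, was read at 169, 60.1, 16.3, 17.0 and 94.8 CPM in the cervical libraries of mice 1 to 5. The medulla libraries had 0, 0.0230, 0, 0 and 0 CPM, the single value above 0 being 1 count in 35889095. Every cervical library lay above every medulla library. Summed over the 5 mice, the cervical counts were 10490.0 (95% counting interval 1882 to 414382) times the medulla counts at equal depth (adjusted p = 5.32e-27, edgeR).

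*Hoxb9* (chr11:96271330-96276595) was even across the cervical libraries, with 46.1, 40.04, 40.7, 34.0 and 32.5 CPM in the cervical libraries and 0, 0.0690, 0, 0 and 0.0246 CPM in the medulla libraries. Its ratio of summed counts was 803 (95% counting interval 313 to 2949), with an adjusted p of 1.03e-17 (edgeR). *Hoxd8* (chr2:74704615-74707933) had 48.5, 30.03, 40.7, 17.0 and 41.6 CPM in the cervical libraries against 0, 0.414, 0, 0 and 0.271 CPM (log2 fold change 6.86 ± 0.71, adjusted p = 1.71e-13, edgeR). Neither gene overlapped between the tissues, and of all tested genes 1.32% had libraries that did not overlap.

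*Hoxb8* (chr11:96279401-96285325) differed in that the medulla kept a measurable level. Its cervical values were 294, 210.2, 97.8, 314 and 119 CPM and its medulla values 16.8, 27.1, 7.74, 0 and 24.1 CPM, again with no overlap (log2 fold change 3.35 ± 0.34, adjusted p = 9.16e-14, edgeR). In the deep libraries it rested on 8127 and 4903 cervical against 1179 and 981 medulla counts. *Hoxb8* had the smallest ratio among the genes of group 8, all 3 of which were called. *Hoxa7* (64.7, 10.01, 16.3, 25.5 and 36.7 CPM against 0, 0.667, 0, 0 and 1.13 CPM, log2 fold change 4.90 ± 0.66) and *Hoxc6* (26.1, 10.01, 8.15, 8.49 and 38.4 against 0, 0.736, 0, 7.83 and 1.48 CPM, 4.23 ± 0.76) were called with adjusted p values of 1.64e-08 and 8.74e-05 (edgeR). *Hoxb7* was called at a log2 fold change of 2.55 ± 0.61 (adjusted p = 0.0132), a call that ended when any mouse was left out. Without mouse 5, *Hoxa7* had a log2 fold change of 4.69 (adjusted p = 0.211) and *Hoxc6* of 3.07 (1).

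The other called genes of group 9 had all but 1 of their counts in the deep cervical libraries. *Hoxa9* had 198 and 231 counts in cervical libraries 1 and 5 and none in the medulla libraries, and was at least 175-fold higher in the cervical cord (3 counts over the medulla group taken as the floor). *Hoxc9*, with 328 and 157 counts against none, was at least 198-fold higher. *Hoxd9* had 87 and 214 counts against 1, a ratio of 368 (95% counting interval 65.6 to 14597). Adjusted p values were 0.000148, 0.000258 and 0.00177 (edgeR), and without mouse 5 they were 1, 1 and 1. *Hoxd9* also lost its call without mouse 3 (0.0692). Beyond group 9 no gene was called. *Hoxa10* had 28 and 21 counts against none (at least 19.99-fold, adjusted p = 0.225) and *Hoxc10* 13 and 4 counts in the deep cervical libraries. *Hoxd13* ran the other way at a very low level, with 8 and 10 counts in the deep medulla libraries against 2 and 1 in the deep cervical ones (adjusted p = 0.995).

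None of the anterior *Hox* genes was called. *Hoxb4*, a hindbrain and cord gene, had 29.97, 20.02, 16.3, 50.9 and 13.3 CPM in the cervical libraries and 8.39, 18.5, 46.4, 0 and 17.3 CPM in the medulla libraries (log2 fold change 0.31 ± 0.48, adjusted p = 1), and the groups overlapped. *Hoxb3* had 24.8, 10.01, 16.3, 8.49 and 21.4 CPM against 16.8, 41.2, 46.4, 7.83 and 37.4 CPM (log2 fold change -0.75 ± 0.45, adjusted p = 1). In the deep pair of mouse 5, where counts were large, *Hoxb3* was lower in the cervical cord at a log2 ratio of -0.80 (-0.92 to -0.68) (95% counting interval), *Hoxa4* at -0.83 (-1.04 to -0.62) and *Hoxb5* at -0.80 (-0.91 to -0.70), while *Hoxd4* was higher at 0.80 (0.65 to 0.96). These intervals cover counting error in 1 mouse only. Over all 4 deep libraries, 1 of 11 genes of groups 1 to 4 had both cervical values above both medulla values and 3 had both below, while for groups 5 to 8 these numbers were 9 and 0 of 11. Among all tested genes the shares were 27.8% and 18.4%. The log2 fold change of several anterior genes (among them *Hoxa2*, *Hoxa4* and *Hoxb5*) changed sign with the fit or the mice used.

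Overlapping transcripts limit some of these values. *Hoxd3* and *Hoxd4*, on the same strand, share annotated exon sequence, so that their reads cannot be fully told apart. *Mira*, a noncoding transcript (chr6:52214491-52215288) that lies between *Hoxa6* and *Hoxa7*, had 59.7, 30.03, 8.15, 8.49 and 27.8 CPM in the cervical libraries and 0, 0.345, 0, 0 and 0.517 CPM in the medulla libraries (log2 fold change 6.01 ± 0.71, adjusted p = 9.16e-11, edgeR). Whether reads were counted by strand is not given in the sources used here. None of 6 other tested noncoding RNAs of the clusters was called (median log2 fold change 0.92). Of 18 tested cofactors and regulators of Hox proteins, 1 was called. *Meis2*, a homeodomain partner of Hox proteins, was lower in the cervical cord, with 39.4, 20.02, 24.4, 25.5 and 42.8 CPM against 58.7, 107, 77.4, 39.1 and 112 CPM (log2 fold change -1.30 ± 0.35, adjusted p = 0.0473, edgeR), and lost the call when any mouse was left out.

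Genes of the monoamine neurons of the medulla lay on the other side. Of 8 tested genes of noradrenaline and adrenaline neurons, 5 were lower in the cervical cord and none was higher (median log2 fold change -4.85), and of 10 tested genes of serotonin neurons 3 were lower and none was higher (median -1.76). *Slc18a2*, the vesicular monoamine transporter, is on both lists.

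*Dbh*, the enzyme that makes noradrenaline, had 33.6, 4.53, 15.5, 39.1 and 16.8 CPM in the medulla libraries of mice 1 to 5 and 0.542, 0, 0, 0 and 0.122 CPM in the cervical ones (log2 fold change -6.56 ± 0.88, adjusted p = 1.52e-08, edgeR). *Slc18a2* had 33.6, 5.20, 7.74, 39.1 and 24.7 CPM in the medulla and 0.289, 0, 0, 0 and 0.341 CPM in the cervical cord (-6.42 ± 0.83, adjusted p = 4.87e-09). Neither gene overlapped between tissues, although each shallow medulla library contributed only 1 to 5 counts. *Slc6a2*, the noradrenaline transporter, had 41.9, 7.13, 0, 31.3 and 14.3 CPM against 0.145, 0, 0, 0 and 0.146 CPM (-7.17 ± 0.92, adjusted p = 2.52e-09, edgeR). *Th*, the first enzyme of catecholamine synthesis, had 8.39, 8.69, 23.2, 31.3 and 13.6 CPM against 3.69, 0, 0, 17.0 and 0.707 CPM (-3.07 ± 0.76, adjusted p = 0.0165, edgeR). *Th* was higher in the medulla of all 5 mice, but its groups overlapped through 2 counts in cervical library 4, without the block its adjusted p was 0.21, and the call ended without mouse 1, 2, 3 or 5. Without mouse 5, the adjusted p was 0.282 for *Dbh*, 0.222 for *Slc18a2* and 0.0759 for *Slc6a2*.

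Of the 12 tested genes of brainstem visceral and branchial neurons, 2 were lower in the cervical cord and none was higher (median log2 fold change -2.26). One of them, *Pou4f1*, a factor of sensory relay and sensory ganglion neurons, had 50.3, 7.13, 46.4, 7.83 and 27.6 CPM in the medulla and 8.02, 10.01, 0, 8.49 and 4.44 CPM in the cervical cord (-2.42 ± 0.59, adjusted p = 0.0161, edgeR). *Pou4f1* lost the call without the block (0.144) and without mouse 1 (0.303), 3 (0.402) or 5 (1).

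The serotonin genes were uneven between medulla libraries. *Tph2*, the enzyme of neuronal serotonin synthesis, had 25.2, 0.437, 15.5, 78.3 and 17.0 CPM in the medulla libraries and 0.651, 0, 0, 0 and 0.853 CPM in the cervical ones (-4.75 ± 0.78, adjusted p = 1.16e-05, edgeR). *Slc6a4*, the serotonin transporter, had 16.8, 0.0920, 31.0, 54.8 and 10.7 CPM against 0.181, 0, 0, 0 and 0.195 CPM (-6.02 ± 0.96, adjusted p = 4.4e-06, edgeR). The deep medulla library of mouse 2 stood apart for both genes, with 19 and 4 counts, while that of mouse 5 had 691 and 435 at similar depth. Without the mouse as a block, the adjusted p was 0.0725 for *Tph2* and 0.0683 for *Slc6a4*, and without mouse 5 it was 0.384 for *Tph2*, while *Slc6a4* then reached 10 counts in no library and was not tested.

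The gene with the smallest adjusted p among those higher in the medulla was *Slc17a7*, the vesicular glutamate transporter VGLUT1. It had 159, 151, 108, 157 and 98.5 CPM in the medulla libraries and 0.470, 10.01, 0, 8.49 and 1.19 CPM in the cervical ones (log2 fold change -6.78 ± 0.50, adjusted p = 1.32e-22, edgeR). The gap held at both depths, with a log2 ratio of -6.37 (-6.80 to -5.96) in the deep pair and of -4.99 (-10.34 to -2.42) in the shallow pairs of mice 3 and 4 (1 against 34 counts), and the call held without any 1 mouse, without the block and in DESeq2. By contrast *Slc17a6*, the transporter VGLUT2 used by most neurons of brainstem and cord, had 73.0, 320.3, 253, 110.4 and 179 CPM in the cervical cord and 294, 217, 294, 313 and 218 CPM in the medulla (log2 fold change -0.66 ± 0.27, adjusted p = 0.512). Of 21 tested genes of glutamate transmission, *Slc17a7* alone was called (median log2 fold change -0.39).

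Among 22 tested genes of glycine and GABA transmission, 4 were lower in the cervical cord and none was higher (median -0.40). *Gad2*, an enzyme of GABA synthesis, had 28.8, 30.03, 40.7, 0 and 52.4 CPM in the cervical libraries against 143, 162, 69.6, 141 and 169 CPM in the medulla libraries (-2.15 ± 0.34, adjusted p = 3.74e-06, edgeR). It was lower in the cord in all 5 mice, with no overlap, and had an adjusted p of 0.06 without mouse 5. Also called were *Gabrb2* (log2 fold change -1.36 ± 0.35, adjusted p = 0.0281, lost when any mouse was left out) and *Gabra6*, a subunit typical of cerebellar granule cells. *Slc6a5*, the glycine transporter of inhibitory neurons, had 102, 300.3, 350.3, 59.4 and 359 CPM against 226, 366, 217, 117 and 326 CPM and was not called (log2 fold change -0.27 ± 0.26, adjusted p = 1).

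Another 6 called genes that averaged 10 counts or more in shallow libraries were higher in the medulla of all 5 mice. Among all 2131 genes counted that well, 1.31% were called and 3.8% had tissues without overlap. *Slc6a17*, a neutral amino acid transporter of synaptic vesicles, had 78.6, 100.1, 97.8, 67.9 and 104 CPM against 226, 339, 217, 258 and 279 CPM (-1.55 ± 0.27, adjusted p = 3.91e-05, edgeR), and the log2 ratio was -1.43 (-1.48 to -1.38) in its deep pair and -1.51 (-2.32 to -0.76) in the shallow pairs. *Syt1*, the calcium sensor of transmitter release, had 92.5, 170.2, 48.9, 153 and 84.8 CPM against 201, 224, 193, 321 and 281 CPM (-1.24 ± 0.27, adjusted p = 0.00355, edgeR). The log2 fold change was -1.41 ± 0.30 for *Sphkap*, -1.18 ± 0.30 for *Nrip3*, -1.09 ± 0.27 for *Cadps* and -0.88 ± 0.23 for *Ndrg4*, with adjusted p values of 0.00238 to 0.0324 (edgeR). Of the 6, *Slc6a17* kept its call without any 1 mouse, *Syt1* and *Sphkap* lost theirs without mouse 1, 3 or 5, and the other 3 lost theirs when any mouse was left out. For *Cadps* the deep pair of mouse 5 differed by a log2 ratio of only -0.07 (-0.11 to -0.04). *Syt1* was the 1 gene called of 15 general neuronal genes (median log2 fold change -0.25).

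**Figure D2:**
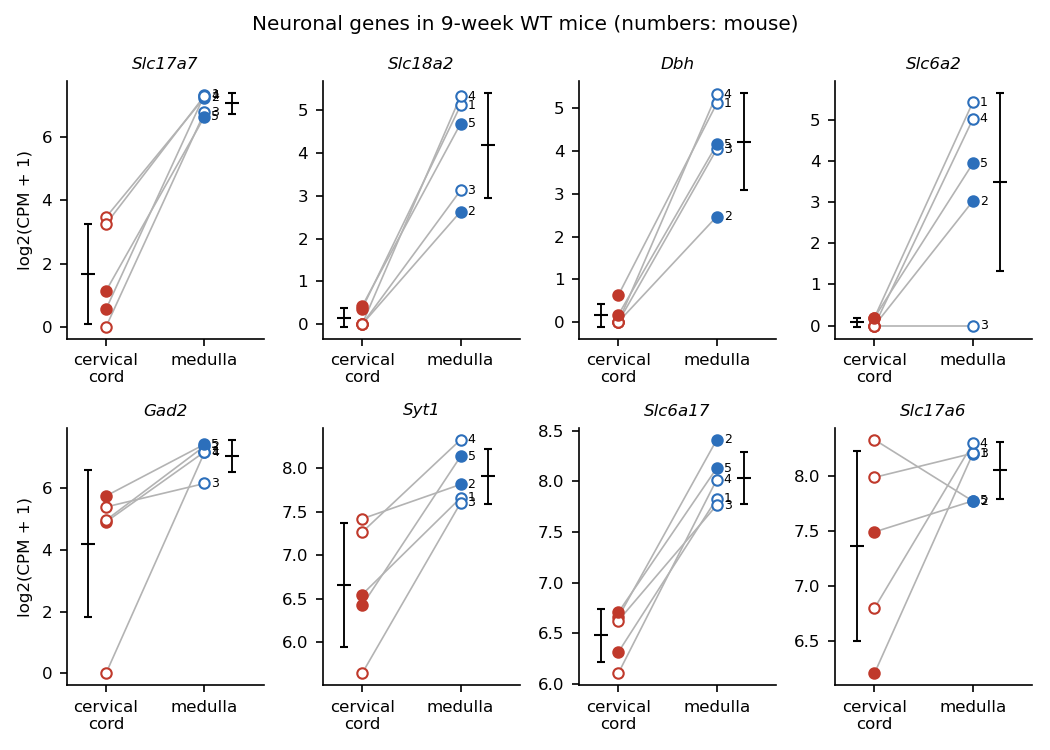
Level of 8 neuronal genes (log2 of CPM + 1) in the medulla and cervical cord libraries, with a line joining the tissues of each mouse. Filled symbols are deep and open symbols shallow libraries, and the bar is the mean with its SD (n = 5). Slc17a7, Slc18a2, Dbh, Gad2, Syt1 and Slc6a17 fell from medulla to cervical cord in all 5 mice and Slc6a2 in 4, while Slc17a6 was higher in the cord of 1 mouse.

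Cerebellar genes were also higher in the medulla libraries. Of 16 tested genes of cerebellar neurons, 8 were lower in the cervical cord and none was higher (median log2 fold change -2.16). *Cbln3*, a synaptic organiser of granule cells, had 0, 29.6, 15.5, 133 and 24.3 CPM in the medulla libraries and 0.831, 0, 0, 0 and 1.63 CPM in the cervical ones (-3.91 ± 0.65, adjusted p = 1.58e-05, edgeR). *Gabra6* had 0, 9.41, 7.74, 23.5 and 16.4 CPM against 0, 0, 0, 0 and 0.171 CPM (-6.51 ± 1.10, adjusted p = 2.11e-05, edgeR), and *Car8*, of Purkinje cells, 8.39, 30.9, 46.4, 141 and 52.7 CPM against 5.96, 10.01, 0, 0 and 5.34 CPM (-2.99 ± 0.52, adjusted p = 3.91e-05, edgeR). The levels were uneven, since medulla library 4 was the highest for *Cbln3*, *Gabra6*, *Car8* and *Fat2* (25.2, 15.7, 0, 157 and 15.3 CPM) and medulla library 1 had no *Cbln3* or *Gabra6*. *Fat2* was called (adjusted p = 0.000874) but lost the call without mouse 1 (log2 fold change -3.39), 2 (-4.52), 4 (-4.44) or 5 (-2.88), and in DESeq2. *Cbln3*, *Gabra6* and *Car8* lost theirs without mouse 5 (adjusted p = 0.554, 1 and 0.584), and the other 4 called genes (*Cbln1*, *Pcp2*, *Itpr1* and *Zic1*) when any mouse was left out. The summed level of the 16 genes was 271 to 1111 CPM in the medulla and 114 to 222 CPM in the cervical cord. The part of attached cerebellar tissue in these values was not tested.

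Of 13 tested choroid plexus genes 1 was called (median -0.93). *Ttr*, transthyretin, had 0, 22.3, 0, 7.83 and 37.4 CPM in the medulla and 0.434, 0, 0, 0 and 4.56 CPM in the cervical cord (-3.03 ± 0.76, adjusted p = 0.0199, edgeR), and lost the call without mouse 2, 3, 4 or 5. Its medulla counts came almost wholly from the deep libraries, but these hold nearly all medulla counts, so this is no trait of *Ttr*. No gene of the forebrain and midbrain list (0 of 10, median -0.85) or of the ependyma list (0 of 12, median 0.11) was called. *Lmx1a*, a roof plate factor, had 108 and 73 counts in the deep medulla libraries against 1 in the 5 cervical libraries. *Eomes*, a factor of unipolar brush cells, had 125 and 42 counts against none and was at least 45.5-fold lower in the cervical cord. *Gpx2*, a glutathione peroxidase, had 56 and 45 counts against none and was at least 27.5-fold lower. Their adjusted p values were 0.0146, 0.0443 and 0.0473 (edgeR), and all 3 lost the call when any mouse was left out.

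On the cord side, *Gfap* had the smallest adjusted p outside the *Hox* genes. *Gfap*, the intermediate filament of fibrous astrocytes, had 3172, 2252, 1605, 1707 and 1653 CPM in the cervical libraries and 411, 481, 379, 235 and 428 CPM in the medulla libraries, a mean of 2078 ± 665 against 387 ± 92.7 (SD, n = 5). The lowest cervical value was more than 3 times the highest medulla value (log2 fold change 2.40 ± 0.24, adjusted p = 9.81e-15, edgeR), and the call held without any 1 mouse. The difference was present at both depths, at 1.95 (1.93 to 1.98) in the deep pair and 2.43 (2.08 to 2.80) in the shallow pairs. *Gfap* was also the 1 gene called when the test was limited to the 1147 genes that reached 10 counts in each of the 10 libraries (log2 fold change 2.42, adjusted p = 0.00359). It stood alone on the astrocyte list, of which 1 of 18 genes was called (median 0.25). It was likewise the 1 gene called of 12 genes of amino acid and neurotransmitter transport that the study itself had picked on these samples (median -0.08), so that this count is not independent evidence.

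*S100b*, a calcium-binding protein of glia, had 1980.2, 661, 709, 832 and 683 CPM against 469.7, 344, 433, 282 and 349 CPM (1.25 ± 0.24, adjusted p = 0.00027, edgeR). Cervical library 1 was far above the others, and without mouse 1 the log2 fold change was 1.04 (adjusted p = 0.0623) and without mouse 5 it was 1.30 (0.222). *C3*, the central complement component, had 72.9, 70.1, 65.2, 42.5 and 81.9 CPM against 0, 8.81, 0, 7.83 and 6.15 CPM with no overlap (3.62 ± 0.46, adjusted p = 1.63e-09, edgeR) and kept its call without any 1 mouse. *C4b*, the complement component upstream of it, had 155, 90.1, 40.7, 187 and 92.0 CPM against 16.8, 46.4, 15.5, 23.5 and 38.8 CPM (1.78 ± 0.34, adjusted p = 0.000383, edgeR), but not without mouse 1 (1.51) or 5 (2.03). The metal-binding genes *Mt1* and *Mt2* were higher by 1.18 ± 0.26 and 1.16 ± 0.27 (adjusted p = 0.00345 and 0.00742, edgeR). Both lost the call under library totals and without mouse 1, 3, 4 or 5.

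Microglial genes did not pass the test (0 of 12), although all 12 log2 fold changes were above 0 (median 0.57) and in the deep libraries all 12 had both cervical values above both medulla values, as did 27.8% of all tested genes. The endothelial and pericyte list (0 of 14, median 0.42), the oligodendrocyte precursor list (0 of 10, median 0.12) and the immediate early list (0 of 10, median -0.06) also held no call.

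*Nefm*, the medium neurofilament of large axons, had 3567, 2713, 3609, 1647 and 2836 CPM against 1569, 1332, 1679, 877 and 1256 CPM, a mean of 2875 ± 799 against 1342 ± 312 (SD, n = 5), and was higher in the cord of all 5 mice (1.08 ± 0.22, adjusted p = 0.000963, edgeR). Its log2 ratio was 1.17 (1.16 to 1.19) in the deep pair and 1.05 (0.85 to 1.25) in the shallow pairs. The companion genes *Nefl* (0.45 ± 0.24, adjusted p = 0.89) and *Nefh* (0.36 ± 0.24, adjusted p = 1) were not called. Cervical library 4 was low in all 3 neurofilament genes, with 1647, 323 and 263 CPM. *Nefm* was the 1 gene called of 16 (median -0.13), lost the call without mouse 3 (1.08) or 5 (1.03), and had an adjusted p of 0.105 under library totals.

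Of 14 tested motor neuron genes, 2 were higher in the cervical cord and none was lower (median log2 fold change 1.19), and 12 of 14 values were above 0. *Chodl*, a marker of fast motor neurons, had 13.6, 20.02, 24.4, 8.49 and 48.3 CPM in the cervical libraries and 0, 6.35, 0, 0 and 6.13 CPM in the medulla libraries (2.80 ± 0.61, adjusted p = 0.00365, edgeR). *Calca*, the CGRP gene of motor and sensory neurons, had 24.5, 40.04, 8.15, 8.49 and 50.2 CPM against 8.39, 4.21, 7.74, 7.83 and 9.60 CPM (2.22 ± 0.55, adjusted p = 0.0178, edgeR). The cholinergic gene *Slc18a3* was higher in the cord of all 5 mice (34.2, 30.03, 65.2, 8.49 and 89.2 CPM against 25.2, 13.3, 38.7, 0 and 21.9 CPM) but did not pass (1.35 ± 0.43, adjusted p = 0.18). *Mnx1*, a determinant of spinal motor neurons, had 23 and 174 counts in the deep cervical libraries against 1 and 8 in the deep medulla ones, a ratio of summed counts of 26.8 (95% counting interval 13.8 to 59.5) (adjusted p = 0.089). The call of *Chodl* ended without mouse 3 (2.69) or 5 (2.58), and that of *Calca* without mouse 1, 2, 3 or 5.

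Of 31 dorsal horn and spinal interneuron genes, *Tac2* alone was called (median -0.05). *Tac2*, the neurokinin B gene of dorsal horn neurons, had 43.1, 20.02, 8.15, 50.9 and 7.60 CPM against 0, 2.53, 7.74, 0 and 2.71 CPM (2.30 ± 0.60, adjusted p = 0.0291, edgeR), a call that ended when any mouse was left out. The sensory ganglion list gave 1 call in each direction (*Calca* and *Pou4f1*, of 10, median -0.63).

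All 16 tested oligodendrocyte genes had log2 fold changes above 0 (median 0.63), 3 were called, and in the deep libraries all 16 had both cervical values above both medulla values (27.8% of all tested genes did). *Mbp*, myelin basic protein, had 42493, 73535, 48885, 57628 and 13279 CPM in the cervical libraries and 28629, 8448, 22772, 14792 and 7026 CPM in the medulla libraries (1.51 ± 0.25, adjusted p = 1.52e-05, edgeR). It was higher in the cord of every mouse, but the groups overlapped, since the deep cervical library of mouse 5 lay below shallow medulla libraries. The log2 ratio was 0.92 (0.91 to 0.93) in the deep pair and 1.50 (1.45 to 1.55) in the shallow pairs. *Mobp* rose by 1.04 ± 0.22 (adjusted p = 0.0024, edgeR), with 0.50 (0.49 to 0.51) in the deep pair and 1.01 (0.90 to 1.13) in the shallow pairs. Without the block *Mbp* had an adjusted p of 0.0768. *Mbp* lost its call without mouse 2, 3 or 5, and *Mobp* when any mouse was left out. *Fth1*, the ferritin heavy chain, which oligodendrocytes hold in quantity, had 15385, 9189, 8269.7, 18094 and 5189.7 CPM against 4672, 2709, 4395, 3397 and 3181 CPM with no overlap (1.50 ± 0.23, adjusted p = 2.01e-06, edgeR), at 0.71 (0.70 to 0.72) in the deep and 1.75 (1.64 to 1.85) in the shallow pairs, and with an adjusted p of 0.12 without mouse 5. *Padi2* (1.49 ± 0.30), *Bcas1* (1.09 ± 0.24) and *Gltp* (1.10 ± 0.28), 3 genes of myelinating cells, were called at adjusted p values of 0.000692, 0.0046 and 0.024 (edgeR). *Padi2* lost its call without mouse 5, and the other two when any mouse was left out.

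Of the 13 mitochondrial transcripts 4 were called higher in the cord (*ND5*, *ND2*, *CYTB* and *ND1*, median of the 13 log2 fold changes 0.88). *ND5* had 13778, 9940.1, 12425, 21015 and 3867 CPM in the cervical libraries and 8179, 3144, 7467, 6582 and 3058 CPM in the medulla libraries (1.03 ± 0.23, adjusted p = 0.00409, edgeR). Its log2 ratio was 0.34 (0.33 to 0.35) in the deep pair and 1.24 (1.16 to 1.32) in the shallow pairs. All 4 calls ended without the block, with adjusted p values of 0.217 to 0.481, under library totals, and when any mouse was left out. The summed level of these transcripts was highest in cervical library 4, which also had the lowest scaling factor.

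**Figure D3:**
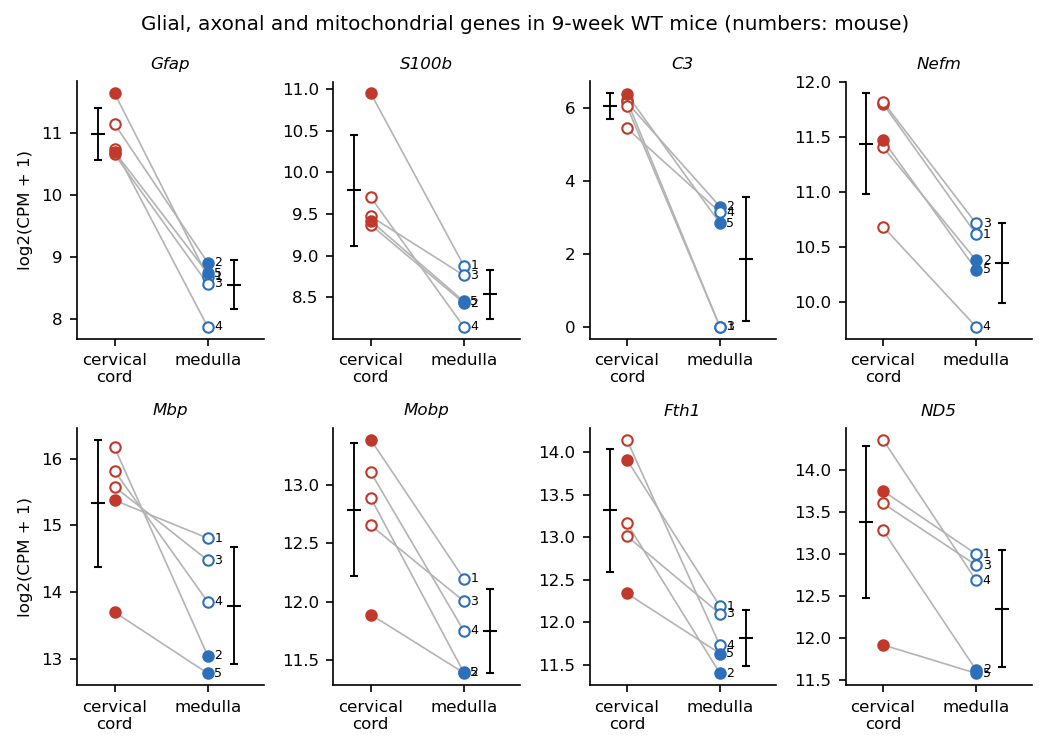
Level of 8 genes of glia, axons and mitochondria (log2 of CPM + 1) in the medulla and cervical cord libraries, with a line for each mouse. Filled symbols are deep and open symbols shallow libraries, and the bar is the mean with its SD (n = 5). Gfap and C3 rose from medulla to cervical cord in every mouse without overlap, and in the medulla the open symbols of Mbp, Mobp and ND5 lie above the filled ones.

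Genes typical of tissues other than cord and medulla were also among the calls, and where their counts came from was not tested. *Bpifa2*, a secreted protein of the parotid gland, had 0.289, 0, 0, 50.9 and 179 CPM in the cervical libraries and 0, 0, 0, 7.83 and 0.0738 CPM in the medulla libraries. *Smr3a*, a submandibular gland gene, had 0, 0, 0, 42.5 and 56.0 CPM against 0, 0, 0, 0 and 0.0246 CPM. Apart from 1 count of *Bpifa2* in medulla library 4, cervical libraries 4 and 5 were the libraries above 1 CPM. *Bpifa2* and *Smr3a* were called (adjusted p = 8.44e-14 and 1.07e-10, edgeR), as were *Car6*, *Dcpp1*, *Pip* and *2310057J18Rik*, although each was above 1 CPM in at most 2 of the 5 cervical libraries. DESeq2 gave *Bpifa2*, *Smr3a*, *Car6* and *2310057J18Rik* an adjusted p near 1, and without mouse 5 none of the 6 had enough counts to be tested. These 6 genes were named after their values were seen.

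Skeletal muscle genes were called in 4 of 10 cases (median log2 fold change 2.86), each with its highest value in cervical library 1. *Ckm*, muscle creatine kinase, had 105, 0, 0, 8.49 and 0.804 CPM in the cervical libraries and 0, 0.0230, 0, 0 and 0.0246 CPM in the medulla libraries, and *Tnnt3*, fast troponin T, 112, 0, 0, 0 and 1.75 CPM against 0, 0.115, 0, 0 and 0.197 CPM. *Atp2a1* (56.5 CPM in cervical library 1) and *Myh4* (67.4 CPM) followed. Adjusted p values were 4.14e-05, 0.000883, 0.00284 and 0.0178 (edgeR), and without mouse 1 they were 0.483, 0.69, 0.549 and 0.916. None of the 4 passed without mouse 5 either, *Atp2a1* not without mouse 2 or 3, and *Myh4* not without any 1 mouse.

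Fibroblast genes of the meninges were higher in the cord in 4 of 14 cases (median 1.53, all 14 above 0). *Igf2*, a growth factor made by the meninges, had 62.2, 30.03, 204, 747 and 362 CPM in the cervical libraries against 67.1, 89.0, 38.7, 62.6 and 45.0 CPM (1.69 ± 0.36, adjusted p = 0.00226, edgeR), and *Col1a1* 18.1, 10.01, 24.4, 153 and 55.4 CPM against 0, 20.6, 15.5, 23.5 and 7.68 CPM (1.93 ± 0.48, adjusted p = 0.0199, edgeR). Cervical libraries 4 and 5 led both, and the summed level of the list was 751 to 6759 CPM in the cervical cord and 712 to 1214 CPM in the medulla. Without mouse 4 the log2 fold change was 1.15 for *Igf2* (adjusted p = 0.874) and 1.72 for *Col1a1* (0.506), and all 4 called genes (with *Mgp*, 1.91 ± 0.49, and *Col1a2*, 1.41 ± 0.37) lost their calls without mouse 1, 3, 4 or 5 and without the block. Of 12 Schwann cell genes none was called (median 1.10). Of 6 red blood cell genes *Hbb-bs* was called (1.41 ± 0.34, adjusted p = 0.0154, edgeR) and lost its call when any mouse was left out. The part of attached tissue in these and the other differences was not tested.

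**Figure D4:**
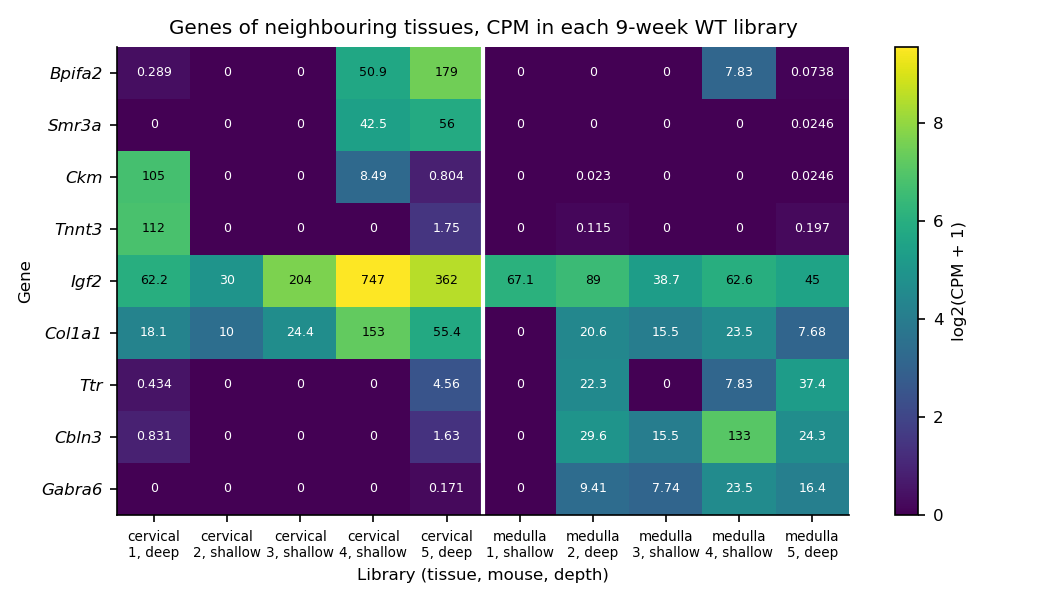
Heat map of the level (CPM) of 9 genes typical of other tissues in the 10 libraries: salivary gland (Bpifa2, Smr3a), muscle (Ckm, Tnnt3), meninges (Igf2, Col1a1), choroid plexus (Ttr) and cerebellum (Cbln3, Gabra6). Salivary and meningeal genes peak in cervical libraries 4 and 5, muscle genes in cervical library 1 and Cbln3 in medulla library 4.

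**Figure D5:**
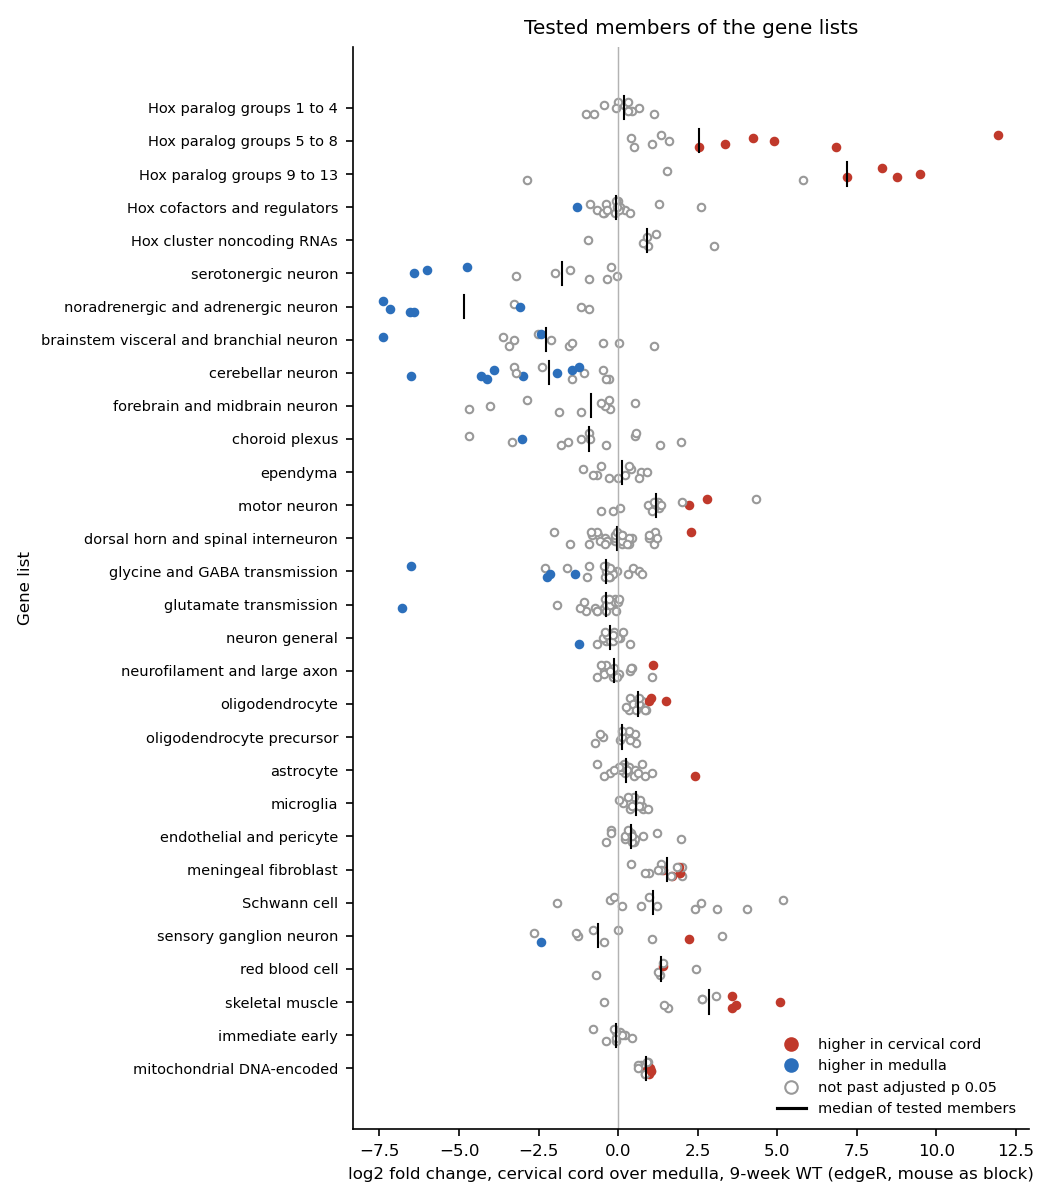
Fitted log2 fold change (cervical cord over medulla) of the tested genes of each gene list other than the study's own, with filled symbols for genes at an adjusted p under 0.05 (edgeR) and a black line at the median of the list. The posterior Hox, muscle and meningeal lists lie to the right, the monoamine, visceral and cerebellar lists to the left.

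The pairs were also taken apart by depth. A fit on mice 3, 4 and 5 alone called 1 gene (*Fmod*, a matrix proteoglycan, log2 fold change 3.41, adjusted p = 0.0259, edgeR, named after its values were seen), against 908 genes at an unadjusted p under 0.05. In that fit *Hoxc8* had an adjusted p of 0.156, *Slc17a7* a log2 fold change of -6.23 (adjusted p = 0.106) and *Gfap* of 2.26 (0.156). The 4 deep libraries alone, compared without the block, called 7 genes (among them *Hoxc8*, *Hoxd8*, *Hoxa7*, *Hoxb9*, *Hoxd9* and *Mira*), and the 6 shallow libraries alone called 5 (*Hoxb8*, *Slc17a7*, *Gfap*, *Igf2* and *Fth1*). Without mouse 5, 10 genes were called, among them *Hoxc8*, *Hoxb8*, *Hoxd8*, *Hoxb9*, *Mira*, *Slc17a7*, *Slc6a17*, *Gfap* and *C3*, and these 9 passed with each of the other mice left out as well. Without mouse 5 the monoamine genes did not pass, with a log2 fold change of -6.05 for *Dbh*.

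The same 2 regions of 9-week SCA7 mice, which the rule did not use, gave a value for 128 of the 138 genes. Of these, 103 had the same sign in SCA7 mice, but the share of all tested genes with the same sign there was not counted. None of 19240 genes was called there in the fit with the block (0%; 851 at an unadjusted p under 0.05), 33 were called without it and 237 by DESeq2. The medulla library of SCA7 mouse 2 stood apart, with 89261 CPM of *ND5* against 3025 to 6900 CPM in the other 4, and without that mouse 2115 genes were called. *Hoxc8* had 94.6, 104, 25.3, 113 and 102 CPM in the SCA7 cervical libraries and no count in the SCA7 medulla libraries. *Slc17a7* had 0, 7.46, 0, 0.478 and 1.87 CPM against 139, 57.0, 89.8, 126 and 189 CPM there. *Dbh* (-4.71) and *Gad2* (-0.76) kept the sign of their log2 fold change, whereas *Igf2* (-2.86) and *C4b* (-0.36) did not.

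The regional difference itself differed between genotypes for 74 of 19838 genes (0.373%, region by genotype term, edgeR), 73 of them with a more positive log2 fold change in WT. This test uses the same 10 WT libraries. *Gfap* had 591, 455, 323, 439.7 and 449.9 CPM in the SCA7 cervical libraries and 226, 271, 142, 188 and 169 CPM in the SCA7 medulla libraries, a log2 fold change of 1.20, and the difference from WT was 1.18 ± 0.29 (adjusted p = 0.0126, edgeR). This difference was called by DESeq2 as well, at 1.17 (adjusted p = 0.00892). The call was lost without the block, at 1.21 (adjusted p = 0.363), in the mice of equal depth, at 1.07 (adjusted p = 0.482), and among genes that reached 10 counts in every library, at 1.22 (adjusted p = 0.358). It was also lost in 5 of 10 fits that left out 1 mouse (WT mouse 1, 4 or 5, SCA7 mouse 4 or 5), with adjusted p values of 0.0571 to 0.267 (edgeR). Meningeal and salivary genes were among the others, such as *Igf2* (difference 4.54 ± 0.47, adjusted p = 5.02e-18), *Mgp* (4.24 ± 0.74) and *Bpifa2* (12.23 ± 1.45). All 3 had high values in WT cervical libraries 4 and 5. *Igf2* and *Mgp* kept their calls without WT mouse 4 (3.99 and 3.92) and without WT mouse 5 (3.97 and 4.20). The SCA7 mice entered these differences too, since the meningeal list was centred at -2.05 there and at 1.53 in WT mice. The reason for this reversal was not tested. *Igf2* was also called without the block (5.04 (adjusted p = 0.0108)) and by DESeq2 (4.44 (adjusted p = 0.0039)). *Mgp* was called by DESeq2 (4.23 (adjusted p = 0.0039)) and lost its call without the block (4.07 (adjusted p = 0.171)). *Bpifa2* lost its call in both, at 12.08 (adjusted p = 0.363) without the block and 4.29 (adjusted p = 1) in DESeq2, and could not be tested without WT mouse 5. In all, 10 mitochondrial transcripts were called, with *ND5* at 1.37 ± 0.23. In DESeq2 the difference of *ND5* was 1.40 (adjusted p = 1) and without the block 2.97 (adjusted p = 0.707), and without SCA7 mouse 2 the difference of *ND5* was 0.78 (adjusted p = 0.0235) and that of *ND2* 0.67 (adjusted p = 0.11). No *Hox* gene and no monoamine gene was called in this test.

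One further WT pair, mouse 2 at 5 weeks, was deep in both tissues and shared no library with the comparison. Its cervical library had 17.0 CPM of *Hoxc8*, 16.6 of *Hoxb9* and 2098 of *Gfap*, and its medulla library 0, 0 and 619.7 CPM. For *Slc17a7* the values were 0.908 and 217 CPM, and for *Tph2* 0.303 and 88.4 CPM. For these 5 genes the direction was that of the 9-week mice. Of the 138 genes called at 9 weeks, 114 had the same direction in this pair, 21 the opposite one and 3 no difference. The share of all tested genes with the same direction was not counted, so it is not known how far these numbers are particular to the called genes. The 4 called meningeal genes were among the 21, with *Igf2* at 27.9 CPM in the cervical library and 169.6 CPM in the medulla library, and *Col1a1* at 15.4 and 31.7 CPM. *Mgp* had 7.70 and 27.6 CPM and *Col1a2* 48.5 and 60.4 CPM. The deep 5-week medulla library of mouse 1 was different in content, with 1 count of *Hoxb3*, 2 of *Hoxb4*, none of *Hoxa2*, 132 CPM of *Tph2* and 25.4 CPM of *En2*, a gene of the midbrain and anterior hindbrain. In the 9-week medulla libraries of mice 1 to 5, the summed levels of *Hox* groups 1 to 4 were 101, 160, 178, 7.83 and 164 CPM. The value of library 4 is that of 1 count. That library also had the highest *Tph2* of the 5, and 39.1 CPM of *En2* against at most 8.39 CPM in the others. Whether its content differed as that of the 5-week library did was not tested.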

How the data were processed

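Total RNA of both tissues was sequenced by the authors, who mapped reads to the mouse genome (mm10 per the labels), kept reads with a single location and deposited raw counts per gene symbol for each library. The aligner and counter are not given in the sources used here, and the labels and the study's design text name different extraction kits. Of 35976 symbols, 32501 matched RefSeq on GRCm38.p6, which gave positions and sequences.

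Deposited counts were tested in R 4.3.3 with edgeR 4.0.16 (bias-adjusted quasi-likelihood test, TMM factors, genes that reached 10 counts in any library, Benjamini-Hochberg adjustment, threshold 0.05), with the mouse as a block. The pairing comes from the animal identifiers in the labels. As a check, deviations from the group means were correlated between tissues over 1147 genes, and r followed depth rather than mouse: it was 0.58 to 0.89 in the 3 mice of equal depth and 0.53 to 0.90 between different mice of equal depth, but -0.69 and -0.67 in mice 1 and 2. CPM used TMM factors, and counting intervals are exact binomial 95% intervals. DESeq2 1.42.0, limma 3.58.1 and the other alternatives appear in the closing section. The 8 pairs of libraries of 1 tissue and similar depth were compared for duplicates, and their chi-square for each degree of freedom was 1.27 to 254. P-values take the 5 mice as replicates, with the spread of each gene estimated in part from other genes. For genes with few or no counts in the shallow libraries they rest mainly on the 4 deep libraries, of which mouse 5 alone gives a pair.

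The test was checked on simulated counts for this comparison (18883 genes): it called 61 of 67 genes changed by a log2 of 3, 37 of 67 at 2 and 5 of 66 at 1, with 3 false calls. The simulation gave every gene the same spread and, apart from the changed genes, both tissues and depths the same composition. The real libraries differed in composition, so these rates need not hold for them. The named genes were every *Hox* gene, up to 4 called members of each list (or its most abundant member), and the called genes with the largest fold changes that were either well counted and of 1 direction in all mice or separated in the deep libraries. Some genes that this rule names are not reported here. Members, lists and this rule were chosen with earlier results of these data known.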

Additional observations from a re-analysis of the deposited data

Results flagged for a closer look

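Single libraries stood apart from the other 4 of their group in 27 of 212 gene and tissue combinations, judged by the gap to the nearest library divided by the range of the group (Dixon's ratio, against its 95% critical value for 5 libraries). For normally distributed values chance gives about 1 in 20, but in 9 of the 27 a single library held all the counts of its group, which fixes the ratio at 1, so that this share is no chance level for counts as sparse as these. In the cervical cord, library 1 was high for *Ckm* (ratio 0.919), *Tnnt3* (0.984), *Myh4* (0.99), *S100b* (0.87), *Dbh* (0.775), *Hoxc10* (0.793) and *Lmx1a* (1), of which *Lmx1a* was a single count. Library 5 was high for *Bpifa2* (0.715), *Dcpp1* (1), *Ttr* (0.905), *Mnx1* (0.804) and *Gabra6* (1), and library 4 for *Th* (0.783, from 2 counts).

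In the medulla, library 4 was high for *Cbln3* (0.777), *Fat2* (0.839) and *En2* (0.786) and low for *Padi2* (0.712), and with a single count each it was also apart for *Hoxc6* (0.811), *Hoxc10* (1) and *Bpifa2* (0.991). Library 3 was low for *Gad2* (0.716). Library 2 was apart for *Hoxc8* (1) and *2310057J18Rik* (1) with 1 count each, and library 5 for *Hoxd9* (1), *Smr3a* (1), *Myh4* (1) and *Mnx1* (0.883), with 1 to 8 counts.

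The regional log2 difference differed between WT and SCA7 mice for 16 named genes, by the region by genotype term of edgeR, each with the more positive value in WT. The difference was 12.2 for *Bpifa2*, 10.2 for *Car6* and 8.71 for *2310057J18Rik*. It was 4.54 for *Igf2*, 4.24 for *Mgp*, 2.87 for *Col1a1* and 4.41 for *Fat2*. *Fat2* was lower in the cord of WT mice (log2 fold change -4.13), so its positive term means a more negative value in SCA7 mice. Among glial genes it was 1.18 for *Gfap*, 2.09 for *C4b*, 1.01 for *Mbp*, 0.904 for *Mobp* and 1.41 for *Fth1*. Among mitochondrial transcripts it was 1.37 for *ND5*, 1.33 for *CYTB*, 1.29 for *ND1* and 1.24 for *ND2*. Most of these calls depended on the fit: 3 of the 16 (*Gfap*, *Mgp* and *Igf2*) were called by DESeq2, 1 (*Igf2*) without the pairing by mouse, 2 in the mice of equal depth and 0 of the 8 that reached 10 counts in every library. With 1 mouse left out, 7 to 16 were called, the fewest without SCA7 mouse 5, and 8 of the 13 that could be tested without WT mouse 5. *Mobp* was called in 2 and *Fat2* in 4 of the 10 fits that left out 1 mouse, and without SCA7 mouse 2 *Mobp* and *ND2* were no longer called, at 0.62 (adjusted p = 0.314) and 0.67 (adjusted p = 0.11). *Col1a1*, *Gfap* and *C4b* were called in 5 of the 10. *Fth1*, *Mgp*, *Igf2*, *ND1*, *ND5* and *CYTB* were called in all 10, but of these only *Mgp* and *Igf2* also by DESeq2.

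Outside the comparison, the P8 WT library labelled medulla held 5993 counts of *Hoxc8*, a gene with 1 count in the 5 medulla libraries at 9 weeks.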

How the results depend on the processing

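Depth limits these results, since 6 of 10 libraries hold too few counts for most genes, so a gene that was not called may still differ. The 138 calls became 73 with DESeq2 (59 shared), 752 with the older form of the quasi-likelihood test (137 shared), 1370 with limma-voom (119 shared), 214 with both genotypes in 1 fit (137 shared), 7 in the deep and 5 in the shallow libraries alone, 2 of 4554 genes after thinning to the smallest total (*Slc17a7* and *Gfap*), 1 of 1147 genes that reached 10 counts in each library (174 at an unadjusted p under 0.05) and 1 in the mice of equal depth (908 unadjusted). On counts simulated without change, with the same spread for every gene and the same composition in all libraries, the older form called 328 of 18913 genes and the form used here 0. Leaving out 1 mouse gave 10 to 86 calls, with 10 without mouse 5, 47 without mouse 3, 61 without mouse 1, 71 without mouse 4 and 86 without mouse 2. Of the 75 named genes that were called, 68 could be tested without mouse 5 and all kept their sign, as did all 75 without each other mouse. Without the replicate block (the pairing by mouse) 129 genes were called, 79 of them shared, and 48 of the 75 named genes kept their call. The robust form of the fit, chosen after seeing the data, called 148.

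The difference between genotypes fell from 74 genes to 14 with DESeq2, 5 without the pairing, 12 in the mice of equal depth and 0 among genes that reached 10 counts in each library (99 at an unadjusted p under 0.05, edgeR). Leaving out 1 mouse gave 14 to 160 calls, with 16 without WT mouse 5, 160 without SCA7 mouse 2, 19 without SCA7 mouse 4 and 14 without SCA7 mouse 5. In SCA7 mice the count of 0 became 237 with DESeq2, 33 without the replicate block, 1 (*Gfap*) among genes that reached 10 counts in each library, 5 with the robust form, and 0 to 2115 when 1 mouse was left out, the last without mouse 2. The cause of these changes was not tested.

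Some log2 fold changes of uncalled genes changed sign. In the mice of equal depth these were *Hoxb4* (-0.12), *Hoxa2* (-0.31), *Hoxa4* (-0.49), *Hoxa5* (-0.02), *Egr1* (-0.14) and *Slc6a5* (0.12). With limma-voom they were *Hoxb4* (-0.26), *Hoxa2* (-0.32), *Hoxd3* (-0.19), *Hoxa4* (-0.67), *Hoxa5* (-0.23), *Hoxb5* (-0.54), *Egr1* (-0.36) and *Slc6a5* (0.08). In the deep libraries alone they were *Hoxa2* (-0.67), *Hoxd3* (-0.03), *Hoxd1* (0.06), *Hoxa4* (-0.27), *Hoxc4* (0.02), *Hoxb5* (-0.10) and *Egr1* (-0.39), and in the shallow ones *Slc6a5* (0.35). The older form turned *Hoxa4* (-0.19) and *Egr1* (-0.11), the fit without the block *Hoxd1* (0.14) and *Hoxb2* (0.13), DESeq2 *Hoxb2* (0.10), both genotypes *Hoxb2* (0.01), and library totals *Egr1* (-0.14). Without mouse 1 *Hoxa4* (-0.22), *Hoxb2* (0.41), *Hoxa5* (0) and *Egr1* (-0.18) turned, without mouse 2 *Hoxc4* (0.01), without mouse 3 *Hoxc4* (0.21), without mouse 4 *Hoxb4* (-0.11), *Hoxa4* (-0.05), *Hoxb5* (-0.23) and *Egr1* (-0.27), and without mouse 5 *Hoxd1* (0.63), *Hoxc4* (0.03), *Hoxb2* (0.38) and *Hoxc10* (-1.88). The opposite ends of these ranges were 0.74 for *Hoxb4*, 1.32 for *Hoxa4*, 1.05 for *Hoxa5*, 0.95 for *Hoxb5* and 0.40 for *Egr1* (without mouse 5), -0.35 for *Hoxb2* (without mouse 2), -0.57 for *Hoxd1* (without mouse 1) and 3.95 for *Hoxc10* (without mouse 4).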

Other observations

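Several called genes lie outside the gene lists and were picked after their values were seen, so they are given as values. Among signalling genes lower in the cervical cord, *Trh*, thyrotropin-releasing hormone, had 16.8, 1.06, 31.0, 0 and 20.8 CPM in the medulla libraries of mice 1 to 5 and 3.54, 0, 0, 0 and 1.22 CPM in the cervical ones (log2 fold change -3.58 ± 0.80, adjusted p = 0.00443, edgeR). *Crh*, corticotropin-releasing hormone, had 0, 3.66, 38.7, 0 and 17.8 CPM against 1.59, 0, 0, 0 and 0.658 CPM (-3.99 ± 0.91, adjusted p = 0.00614, edgeR). Both peptides were uneven across the medulla libraries, and medulla library 4 had no count of either. *Nxph3*, a neurexin ligand, had 33.6, 17.5, 23.2, 31.3 and 19.0 CPM against 4.59, 0, 0, 0 and 2.44 CPM without overlap (-3.17 ± 0.62, adjusted p = 0.000465, edgeR), and *Cnpy1*, a gene of the midbrain and hindbrain border, 8.39, 3.04, 7.74, 31.3 and 11.8 CPM against 0, 0, 0, 0 and 0.292 CPM, also without overlap (-5.79 ± 1.06, adjusted p = 0.000152, edgeR). A count of 0 in the shallow cervical libraries allows up to 24.4 to 30.03 CPM of these genes. *Cyp26b1*, an enzyme that breaks down retinoic acid, had 25.2, 32.7, 7.74, 39.1 and 25.9 CPM against 2.93, 0, 0, 8.49 and 8.63 CPM (-2.30 ± 0.56, adjusted p = 0.0161, edgeR).

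Among genes higher in the cord, *Klk6*, a protease of oligodendrocytes, had 204, 80.1, 73.3, 67.9 and 105 CPM in the cervical libraries and 33.6, 52.9, 31.0, 23.5 and 42.2 CPM in the medulla libraries (1.41 ± 0.33, adjusted p = 0.00873, edgeR). *Apod*, apolipoprotein D of glia, had 899, 581, 684, 824 and 938 CPM against 411, 396, 511, 368 and 439.6 CPM (0.87 ± 0.23, adjusted p = 0.0355, edgeR), and *Hspb1*, a small heat shock protein, 39.9, 50.1, 16.3, 50.9 and 26.1 CPM against 8.39, 4.72, 15.5, 7.83 and 8.17 CPM (2.12 ± 0.49, adjusted p = 0.00742, edgeR). For all 3 every cervical library lay above every medulla library. For *Hspb1* the nearest values, 16.3 and 15.5 CPM in mouse 3, differed by less than 1 count, which was worth 8.15 CPM in the cervical and 7.74 CPM in the medulla library.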
